A study of Oryctolagus cuniculus with 4 samples.

Results

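INSL5 (ENSOCUG00000004666) was followed through rabbit bladder urothelium as 1 gene of the 18475 in the deposited gene list, of which 9771 carry a symbol. Its row was taken by the symbol INSL5, and its counts were summed per cell class and sample and, within the epithelial cells, by whether KRT5 or UPK3B was found in a cell. The gene was singled out because earlier results of the same libraries had it among the leading genes of an epithelial group, so its levels across classes, across KRT5 and UPK3B groups and between conditions are given as descriptions, with no test. Droplet single-cell RNA-Seq had been run on bladder mucosa of adult New Zealand rabbits, with 2 normal samples under homeostasis (Normal_1, Normal_2) and 2 samples taken at day 10 after focal mucosal resection (Injury_1, Injury_2), when new urothelium had just closed the wound. The study's methods call the samples biological replicates, but the labels do not tie them to separate animals, so a p-value between conditions measures only the spread between these samples. In the fits by INSL5 state, with the sample as a term, a p-value measures only how the difference within a sample varied between these samples.

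INSL5 encodes a peptide hormone of the insulin and relaxin family. Like its relatives it is made as a precursor, from which proprotein convertases cut out a connecting peptide to leave A and B chains joined by disulphide bonds, and it signals through the G protein-coupled receptor RXFP4. Its best known source is the enteroendocrine L cell of the colon, where it is stored with GLP-1 and PYY, and it is not among the classical markers of bladder urothelium. That epithelium is layered, with KRT5-bearing basal cells below, intermediate cells above them and umbrella cells at the lumen, whose apical membrane carries uroplakins such as UPK1B and UPK3B. No row of the gene list carries the symbol of a relaxin family receptor, RXFP1 to RXFP4, so these receptors were not analysed here.

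The 4 libraries held 5823 to 6884 barcodes and 28745017 to 47881609 unique molecular identifiers (UMIs, each a captured RNA molecule), and 4308 to 6081 cells per sample passed limits on depth (500 UMIs or more), genes found (200 or more) and mitochondrial UMIs (no more than 15%). Normal_1 was the shallowest library. From 8 to 13 barcodes were shared between any pair of libraries, at most 0.223% of the smaller. Epithelial-like cells, named from clusters with raised KRT15, KRT18, CDH1, KRT7 and other epithelial markers, numbered 566 and 354 in Injury_1 and Injury_2 and 441 and 171 in Normal_1 and Normal_2, which made 1532 of 21945 cells. The tissue is labelled urothelium, and the 8 epithelial markers in the gene list summed to between 4481 and 7626 CPM (UMIs per 1000000 UMIs of the same cells) in that class, but most of the cells of every sample were stromal or endothelial. Summed markers of fibroblasts in the epithelial-like cells came to 1096 and 1596 CPM in the injured and to 148 and 1849 CPM in the normal samples. Summed markers of neutrophils came to 218 and 786 CPM in the injured and to 33.0 and 69.1 CPM in the normal samples, so they were higher where INSL5 was higher, with S100A12 at 81.5, 648, 0.190 and 0 CPM in Injury_1, Injury_2, Normal_1 and Normal_2 (called higher, edgeR adjusted p = 0.0425), and the part of either list in the results on INSL5 was not tested.

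INSL5 was found almost entirely in epithelial-like cells. Of the INSL5 UMIs in the cells kept, 1025 of 1059 in Injury_1 (96.8%), 1565 of 1591 in Injury_2 (98.4%), 51 of 52 in Normal_1 (98.1%) and 22 of 24 in Normal_2 (91.7%) lay in this class. Its level there was 141 and 279 CPM in Injury_1 and Injury_2 and 9.67 and 7.23 CPM in Normal_1 and Normal_2. All other cells together had 0.912, 0.683, 0.0512 and 0.0484 CPM in the same order, so the lowest epithelial level exceeded the highest level of these pooled cells. Among the other classes with at least 20 cells in every sample, T and NK cells came next, with 5 and 2 UMIs (2.15 and 1.54 CPM) in the injured samples and none in the normal ones. The mean over the 4 samples was 109 ± 129 CPM (SD, n = 4) in epithelial-like cells, 118 times that of T and NK cells, a ratio that rests on very few UMIs in the T and NK cells.

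The low counts outside the epithelium came mostly from the injured samples. Stromal cells had 19, 10, 0 and 2 INSL5 UMIs (0.970, 0.412, 0 and 0.0767 CPM), endothelial cells 5, 8, 1 and 0 UMIs (0.586, 1.28, 0.103 and 0 CPM), and macrophages 3, 5, 0 and 0 UMIs (0.617, 1.23, 0 and 0 CPM) in Injury_1, Injury_2, Normal_1 and Normal_2. Neurones and glia had 1 UMI, neutrophils 1 (9.15 CPM in Injury_1, whose 143 neutrophils had a median of 669 UMIs) and mast cells 0. No cell outside the epithelial-like class held more than 1 INSL5 UMI. KRT15, a keratin made by the epithelium, was found outside it as well, and INSL5 reached 17.1, 25.4, 1.22 and 3.94 UMIs per 1000 KRT15 UMIs in all other cells against 29.7, 63.1, 4.94 and 2.67 in epithelial-like cells. Both ratios were thus higher in the injured samples, inside and outside the class. Whether the UMIs outside the epithelium came from free RNA or from the cells they were counted in was not tested.

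**Figure D1:**
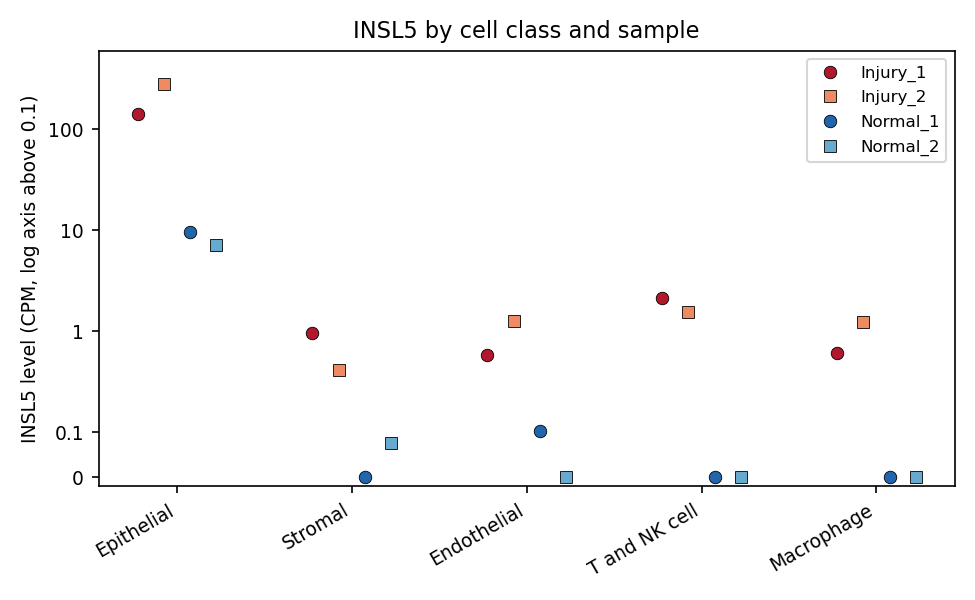
INSL5 level (CPM, log axis above 0.1 and linear below it) in the 5 classes with the most cells, 1 point per sample, with injured samples in red and orange and normal samples in blue. Epithelial-like cells lie at 141 and 279 CPM in the injured and at 9.67 and 7.23 CPM in the normal samples, and no point of another class exceeds 2.15 CPM.

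Within the epithelium, INSL5 was far higher in the injured samples. The mean was 210.0 ± 97.0 CPM (SD, n = 2) in the injured and 8.45 ± 1.72 CPM (SD, n = 2) in the normal samples, a ratio of 24.8, and over the pairs of an injured with a normal sample the ratio ran from 14.6 to 38.5. The difference between the means was larger than the SD of either group. The log2 fold change fitted by edgeR over all genes was 4.40 with a standard error of 0.45, which placed INSL5 at rank 19 of 7046 genes ordered from the largest rise to the largest fall. Of these 7046 genes 117 were called at an adjusted p of 0.05 (1.66%), and nothing is read from a call of INSL5 because the gene was chosen with these levels known. Among alternatives in the choice of cells, scaling and test, its fitted fold change stayed between 3.76 and 4.86.

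More cells held the transcript in injury, and those cells held more of it. An INSL5 UMI was found in 190 of 566 cells of Injury_1 (33.6%, 95% Wilson interval 29.8 to 37.6%), 228 of 354 of Injury_2 (64.4%, 59.3 to 69.2%), 37 of 441 of Normal_1 (8.39%, 6.15 to 11.4%) and 16 of 171 of Normal_2 (9.36%, 5.84 to 14.7%), intervals that cover counting error only. Median depth was 11932, 16316, 12916 and 19902 UMIs per cell, so Normal_2, with one of the lowest shares, was the deepest. With every cell thinned to 1000 UMIs the shares were 7.73%, 16.2%, 1.16% and 1.18%, leaving aside 17, 8, 25 and 9 cells below that depth. Stromal cells, which should lack INSL5, had shares of 0.0996%, 0.0492%, 0 and 0.00945% after thinning, and 0.726%, 0.3326%, 0 of 1672 cells (which allows up to 0.179%) and 0.0535% without it, at median depths of 7358.5, 7764, 4742 and 6824 UMIs. The share in normal epithelium was therefore above this background as well.

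Counts per cell were uneven. The highest count in a cell was 60 and 113 in Injury_1 and Injury_2 and 4 and 3 in Normal_1 and Normal_2. At least 3 UMIs were found in 85, 123, 4 and 1 cells, and at least 10 in 27, 40, 0 and 0. In Injury_1 the cells with at least 10 made up 4.77% of the epithelial-like cells and held 57.8% of their INSL5 UMIs, and in Injury_2 they made up 11.3% and held 63.2%. In normal epithelium a cell with INSL5 mostly had a single UMI, 29 of 37 cells in Normal_1 and 11 of 16 in Normal_2. The transcript was thus concentrated in a minority of cells of both injured samples, while among the many cells with low counts 70 in Injury_1 and 75 in Injury_2 had exactly 1 UMI.

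**Figure D2:**
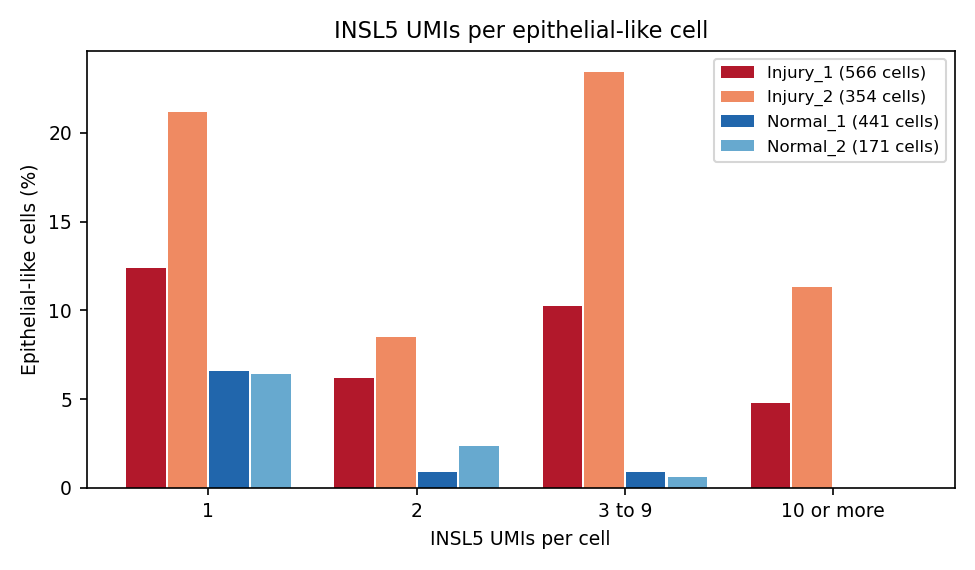
Share of epithelial-like cells (%) by the number of INSL5 UMIs in the cell (1, 2, 3 to 9, 10 or more), 1 bar per sample, with injured samples in red and orange and normal samples in blue. Cells with 10 or more UMIs make up 4.77% of Injury_1 and 11.3% of Injury_2 and are missing from both normal samples.

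The level also rose with the depth of the cell in the injured samples. Cells with 5000 to 10000 UMIs had 36.1 CPM in Injury_1 and 181 CPM in Injury_2, cells with 10000 to 20000 UMIs 138 and 208 CPM, and cells with over 20000 UMIs 206 and 394 CPM. In the normal samples the same classes had 18.8 and 19.9 CPM, then 9.17 and 9.43 CPM, then 3.10 and 5.49 CPM, from 1 to 41 UMIs each. Deeper cells thus had a higher INSL5 level in CPM in injury and less in normal tissue. In these 3 classes the lower injured level exceeded the higher normal level, while cells under 5000 UMIs, with 5, 6, 2 and 1 INSL5 UMIs in all, had 23.2, 114, 18.6 and 31.7 CPM in Injury_1, Injury_2, Normal_1 and Normal_2. Cells among the highest 5% of doublet scores had 231 and 163 CPM in the injured samples and the remaining cells 134 and 286 CPM, so the injured samples stayed above the normal ones (9.97 and 8.38 CPM) without them.

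KRT5, the keratin of basal cells, and UPK3B, a uroplakin, split the epithelial-like cells into 4 groups. Cells with KRT5 but no UPK3B had 225 CPM of INSL5 in Injury_1, 469 CPM in Injury_2, 3.49 CPM in Normal_1 and 6.56 CPM in Normal_2, from 46, 65, 147 and 58 cells. Cells with UPK3B but no KRT5 had 99.3, 133, 15.7 and 12.1 CPM, from 383, 142, 103 and 19 cells. Between the conditions, then, the order of these groups was turned around, but the normal order rests on few INSL5 UMIs. Cells with KRT5 only held 7 UMIs in Normal_1 and 8 in Normal_2. Cells with UPK3B only held 20 UMIs in 17 cells of Normal_1 and 4 UMIs in 2 cells of Normal_2. Cells with both had 201, 167, 5.15 and 12.1 CPM, the last 2 from 1 UMI each in 12 and 6 cells. Cells with neither had 229, 443, 12.8 and 6.39 CPM, from 85, 85, 179 and 88 cells. In each of the 4 groups the lower injured level exceeded the higher normal level, so no group lacked the difference.

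Detection of UPK3B went with less INSL5 in injury and with more in normal tissue. UPK3B-detected cells had 116 and 145 CPM of INSL5 in Injury_1 and Injury_2 against 227 and 456 CPM in UPK3B-undetected cells, differences of -0.97 and -1.64 in log2(CPM + 1). In Normal_1 and Normal_2 they had 14.3 and 12.1 CPM against 7.88 and 6.47 CPM, differences of 0.79 and 0.81, from 21 and 5 INSL5 UMIs in the UPK3B-detected cells. For KRT5 the directions were opposite to these. KRT5-detected cells had 213 and 323 CPM against 119 and 248 CPM in KRT5-undetected cells of the injured samples, differences of 0.84 and 0.38. In the normal samples they had 3.64 and 6.92 CPM against 14.0 and 7.47 CPM, differences of -1.69 and -0.098, of which the second was close to 0. Median depths of the UPK3B-detected and undetected cells were 11685 and 12812 UMIs in Injury_1, 15866 and 16684 in Injury_2, 12822 and 12922 in Normal_1, and 17530 and 19992 in Normal_2.

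The level was also followed over the number of UPK3B UMIs in a cell. In Injury_1 INSL5 was at 227 CPM in cells with no UPK3B UMI, 253 CPM with 1, 94.8 CPM with 2 to 3, 83.1 CPM with 4 to 9 and 32.7 CPM with 10 or more. In Injury_2 it was at 456, 155, 147 and 119 CPM in the first 4 of these classes, and the last held a single cell. So at the edge of detection, between no UMI and 1, INSL5 fell in Injury_2 and not in Injury_1, and with more UPK3B it was lower in both. Normal_1 and Normal_2 had 7.88 and 6.47 CPM with no UPK3B UMI and 16.3 and 16.02 CPM with 1. With 2 to 3 they had 14.4 CPM and, in 7 cells, 0 CPM, and 7 cells of Normal_1 with 4 to 9 had 0 CPM, so no further rise was seen with more UPK3B. With increasing KRT5, Injury_2 went from 248 CPM at no UMI through 201, 253 and 348 CPM to 569 CPM at 10 or more, and Injury_1 from 119 through 262, 68.9 and 191 to 236 CPM. Normal_1 had 14.0 CPM with no KRT5 UMI and 13.0 CPM with 1, the second from 7 INSL5 UMIs in 41 cells. It had no INSL5 UMI in 32 cells with 2 to 3 KRT5 UMIs, 1 in 51 cells with 4 to 9 and none in 35 cells with 10 or more. Normal_2 had 7.47 CPM with no KRT5 UMI, then 2.98, 3.25, 16.1 and 3.51 CPM, the fourth value from 6 INSL5 UMIs in 17 cells, so its highest level was not at low KRT5.

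**Figure D3:**
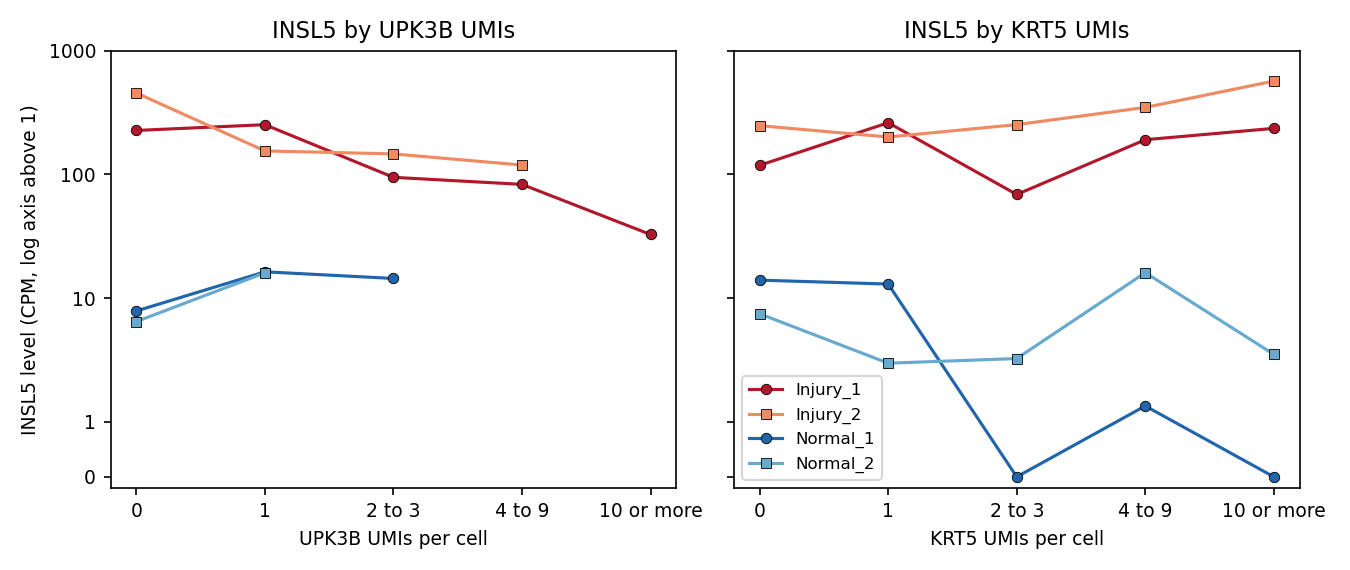
INSL5 level (CPM, log axis above 1 and linear below it) in epithelial-like cells grouped by their UPK3B UMIs (left) or KRT5 UMIs (right), 1 line per sample, for groups of at least 10 cells. In the injured samples INSL5 falls with UPK3B, from 227 to 32.7 CPM in Injury_1 and from 456 to 119 CPM in Injury_2, whereas in Normal_1 no INSL5 UMI was found with 10 or more KRT5 UMIs.

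Clustering of the epithelial-like cells alone placed the transcript by wider expression state. INSL5 was among the genes used, so these levels describe the sub-clusters. Sub-cluster 1, led by F3 (tissue factor, which starts coagulation), INSL5, the laminin chains LAMB3 and LAMA3, PLAU (urokinase) and CRABP2, had 240 CPM in Injury_1, 485 CPM in Injury_2, 4.63 CPM in Normal_1 and 3.27 CPM in Normal_2, with the transcript in 67.9%, 88.2%, 4.48% and 5.41% of its cells. Sub-cluster 4, led by PTHLH (a parathyroid hormone-like peptide) and KRT5, had 296, 399, 0.632 and 6.88 CPM, and Normal_1 gave only 1 UMI in 118 of its cells. Among sub-clusters 0 to 4, these states with basal genes were the highest in both injured samples and the lowest in Normal_1. Their leading genes were taken over injured and normal cells together. F3 and LAMB3 were lower in injured epithelial-like cells (log2 fold changes -4.16 and -4.03), so they need not mark the injured cells of these states. Normal_2 had only 9 cells of sub-cluster 4, with 1 INSL5 UMI.

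States led by uroplakin, cytokine or secretory genes had less INSL5 in injury and more in Normal_1. Sub-cluster 3, led by UPK1B, had 61.4 and 104 CPM in Injury_1 and Injury_2 and 6.41 and 21.0 CPM in Normal_1 and Normal_2. Sub-cluster 2, led by the cytokines IL1B and CXCL8 and the immunoglobulin carrier PIGR, had 38.6 and 84.2 CPM in the injured samples and 31.3 CPM in Normal_1, and 1 UMI in 4 cells of Normal_2. Injury_1 and Normal_1 thus differed little in this state. Sub-cluster 0, with RHPN2 and FAM13A first, lay between, at 79.3, 226, 16.4 and 23.6 CPM. Cycling cells, sub-cluster 8 with TOP2A first, had 255 CPM in 11 cells of Injury_1 and 303 CPM in 7 of Injury_2. Sub-clusters 5 (median 1121 UMIs), 6 and 7 (led by stromal and endothelial genes) are not described here. Their groups of at least 10 cells in a sample did enter the correlations below.

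When INSL5, KRT5 and UPK3B were kept out of the clustering, the epithelial-like class was made of the same 1532 cells. One of the new sub-clusters then had 271 and 458 CPM in the injured samples, 0.665 CPM in Normal_1 from 1 UMI in 109 cells, and 8.32 CPM in Normal_2 from 1 UMI in 8 cells. Another had 225, 512, 2.04 and 3.35 CPM. Both were picked out by these INSL5 levels, so the values are a description and no support is drawn from them.

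**Figure D4:**
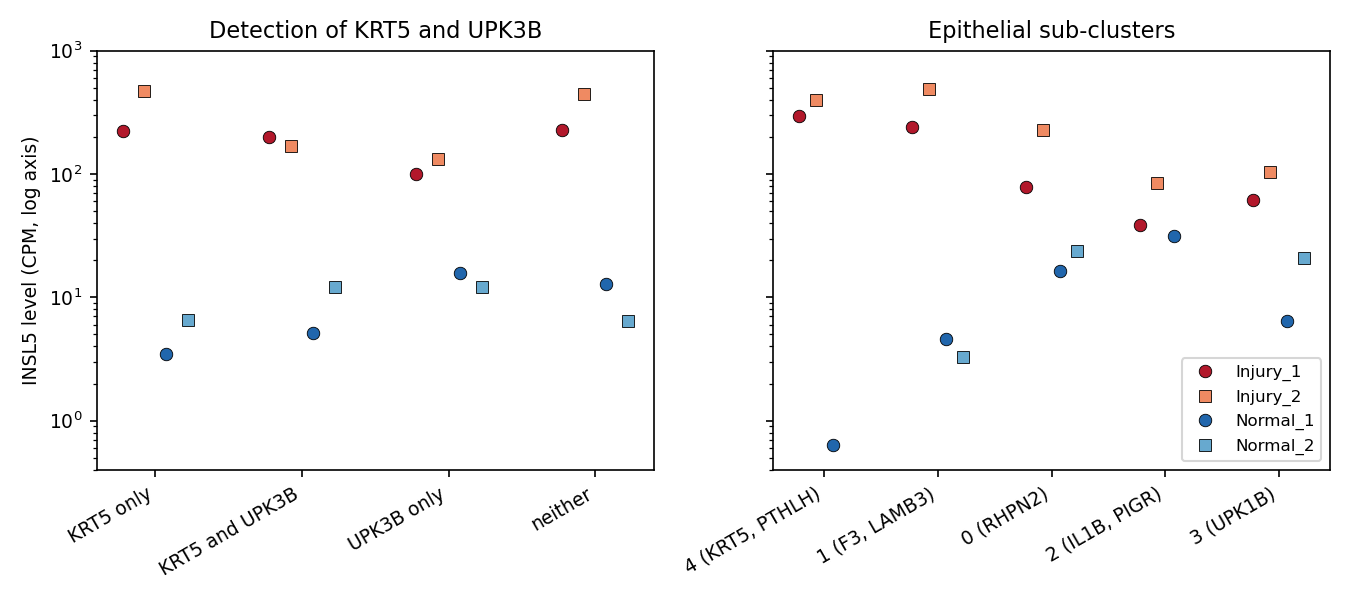
INSL5 level (CPM, log axis) in epithelial-like cells by detection of KRT5 and UPK3B (left) and in 5 epithelial sub-clusters with 2 of their leading genes or fewer (right), 1 point per sample, for sub-clusters at least 10 cells per sample. Injured samples lie at 99.3 to 469 CPM in the detection groups and normal samples at 3.49 to 15.7 CPM, and sub-cluster 4 spans 0.632 CPM in Normal_1 to 399 CPM in Injury_2.

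Genes whose pattern was most like that of INSL5 were sought over 27 points, the sub-clusters of each sample with at least 10 cells, among 2737 genes with a symbol and a mean of at least 20 CPM. These points share libraries and include the shallow sub-cluster 5 and sub-clusters 6 and 7, led by stromal and endothelial genes. The correlations of log2 levels are therefore descriptions. CRABP2, which carries retinoic acid to its nuclear receptor, came first with r = 0.84, and PSME1, a proteasome activator subunit, followed with r = 0.84. The next were HDDC2 (0.82), MKKS (0.78), CSTA (0.76), AAAS (0.75), VGLL4 (0.75), DHX30 (0.72), IER3 (0.72) and MRPS36 (0.72). The pooled points include the difference between the conditions, and within the 15 injured or the 12 normal points the values were lower for these genes, other than MKKS in the normal points. CRABP2 had 0.73 and 0.45, HDDC2 0.72 and 0.71, MKKS 0.31 and 0.84, CSTA 0.27 and 0.55, VGLL4 0.41 and 0.13, and IER3 0.50 and 0.0049. CRABP2 was at 321 and 709 CPM in the injured and 66.6 and 150.0 CPM in the normal epithelial-like cells. It was not called between the conditions (log2 fold change 1.97, standard error 0.61, adjusted p = 0.153 from edgeR). CSTA, an inhibitor of cysteine proteases in stratified epithelia, was at 50.9 and 94.5 CPM against 3.60 and 8.22 CPM (log2 fold change 3.41, standard error 0.59, adjusted p = 0.0559 from edgeR).

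Within a condition, several epithelial genes ran with INSL5 in injury and against it in normal tissue, or the reverse. The 12 normal points held few INSL5 UMIs each, from 0 in sub-clusters 5 and 7 of Normal_2 to 24 in sub-cluster 0 of Normal_1. UPK3B had r = -0.63 over the 15 injured points and 0.80 over the 12 normal points, and UPK1B -0.87 and 0.48. F3 had r = 0.76 and -0.64, and LAMB3 0.54 and -0.69. KRT5 itself had 0.31 and -0.48. TP63, a basal transcription factor, was positive in both, at 0.59 and 0.25.

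The cells were then split by INSL5 itself, to test other genes. KRT5 and UPK3B, whose detection had entered the choice of INSL5, are given in this split as descriptions. In the clustering of all cells, INSL5 was also among the leading genes of an epithelial cluster with SERPINB5, KRT5 and LAMB3. Calls of other genes that mark basal or uroplakin-bearing cells are therefore not independent of the choice of INSL5, and are read as descriptions too. Among epithelial-like cells with at least 5000 UMIs, those with an INSL5 UMI (185, 223, 36 and 15 cells in Injury_1, Injury_2, Normal_1 and Normal_2) were summed per sample and set against those with none (295, 105, 340 and 135), with the sample as a term. edgeR called 1 of 6185 genes (0.0162%), a gene with no symbol (ENSOCUG00000022850) that was lower in cells with INSL5 (log2 fold change -1.96, standard error 0.21, adjusted p = 0.00869). It was at 85.1 against 359 CPM in Injury_1, 7.81 against 23.2 CPM in Injury_2, 0 against 1.07 CPM in Normal_1 and 0 against 4.41 CPM in Normal_2. The fall rests on the injured samples, since in the normal ones the gene was low in both states and only 36 and 15 cells held INSL5. There were 270 genes at an unadjusted p under 0.05, and DESeq2 called 2. No gene of the basal, uroplakin, luminal, wound, proliferation, stress or prohormone lists was called. In the 2 injured samples alone 415 genes were called, so the count depended on whether the normal samples entered.

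A stricter split was possible in the injured samples only. Cells with at least 3 INSL5 UMIs (85 in Injury_1, 123 in Injury_2) were compared with cells with none (295 and 105), and edgeR called 500 of 5706 genes (8.76%), 238 higher (4.17%) and 262 lower (4.59%) in the cells with INSL5. The test rests on 2 samples with 2 sums each. Median depths were not equal: the cells with at least 3 INSL5 UMIs had 17548 and 19137 UMIs and those with none 11323 and 14296 UMIs in Injury_1 and Injury_2. In cells with 5000 to 20000 UMIs, 396 genes were called, and 305 of the 500 were called again in the same direction. With the highest 5% of doublet scores left out, 483 of the 500 were.

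Among the genes with the largest rises in the cells rich in INSL5 were KRT16, OLFM3, CENPE and CRABP2. KRT16, a keratin of activated and fast-dividing epithelium, was at 20.1 CPM in cells with at least 3 INSL5 UMIs and 4.54 CPM in cells with none in Injury_1, and at 71.5 and 8.88 CPM in Injury_2, a log2 fold change of 2.60 (standard error 0.28, edgeR adjusted p = 0.00036). CRABP2 was at 677 against 191 CPM and 1028 against 343 CPM in the same samples, a log2 fold change of 1.69 (standard error 0.09, edgeR adjusted p = 2.0e-06). OLFM3, a secreted olfactomedin-domain protein, was at 53.0 against 7.75 CPM and 44.2 against 16.4 CPM, a log2 fold change of 2.16. The other genes with the largest rises were CENPE, a mitotic kinesin (2.03), KIF20B, another mitotic kinesin (1.67, but adjusted p = 0.217 at 5000 to 20000 UMIs), ATP6V0D2, a proton pump subunit (1.38), UBE2T, a ubiquitin-conjugating enzyme of DNA repair (1.35), ROBO2, a receptor for Slit guidance proteins (1.30), and TRIM29, a gene of basal epithelia (1.26). KRT5, which the choice of groups had used, was at 123 against 41.4 CPM and 260.4 against 77.1 CPM.

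Among the genes with the largest falls were UPK1B, S100A12, CRISP3 and PIGR. UPK1B, a uroplakin of umbrella cells, was at 1.22 against 59.6 CPM in Injury_1 and at 0 against 8.88 CPM in Injury_2, and was called lower (edgeR adjusted p = 5.4e-05). S100A12, a calgranulin, was at 42.004 against 106 CPM and at 96.3 against 1643 CPM, a log2 fold change of -3.12 (standard error 0.45, edgeR adjusted p = 0.0022). CRISP3, a secreted cysteine-rich protein, was at 105 against 793 CPM and at 51.7 against 408 CPM, a log2 fold change of -2.96 (standard error 0.10, edgeR adjusted p = 3.6e-08). PIGR, which carries antibodies across epithelia, was at 25.6 against 62.5 CPM and at 86.2 against 370.0 CPM, a log2 fold change of -1.85. DAB2, an adaptor of endocytosis (-2.41), NCKAP5 (-2.20), FLRT3 (-2.01), the sialyltransferase ST3GAL4 (-1.95) and SH3BGRL2 (-1.88) were also called. SFRP2, a WNT antagonist made by fibroblasts, had -1.98 but an adjusted p of 0.316 when cells with any INSL5 UMI were compared in the injured samples. Of the neutrophil markers tested, S100A12 and S100A9 were lower, and of the 4 fibroblast markers tested LUM was lower. The 5 neutrophil markers in the gene list summed to 104 CPM in cells with at least 3 INSL5 UMIs and 275 CPM in cells with none in Injury_1, and to 236 and 1824 CPM in Injury_2. The 5 fibroblast markers summed to 338 and 1524 CPM in Injury_1 but to 1267 and 1015 CPM in Injury_2, so the order was turned around between the samples. The part of these cell types in the result was not tested.

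By list and without KRT5, 2 of the 9 basal genes tested (KRT15, CD44) were called higher in the INSL5-rich cells and none lower, with a median log2 fold change of 0.39 against 0.0042 over all 5706 genes, of which 4.17% were called higher and 4.59% lower. CD44, a receptor for hyaluronan, was at 113 against 60.6 CPM in Injury_1 and 120 against 56.7 CPM in Injury_2, and TP63 had a log2 fold change of 0.62 that was not called (edgeR adjusted p = 0.196). The laminin chains LAMB3 (0.19) and LAMA3 (0.22) were not called. Of the 3 uroplakin and umbrella genes tested other than UPK3B, UPK1B and SNX31 were called lower and none higher, with a median of -1.28. UPK3B itself had a log2 fold change of -1.56. Among 6 luminal regulators and keratins KRT7 was higher (0.47), KRT18 (-0.33) and the transcription factor GATA3 (-0.31) were lower, and PPARG, KLF5 and ELF3 were not called.

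Of the 7 wound, EGF ligand and protease genes tested, PLAU (0.70) and PTHLH (0.80) were higher and the EGF receptor ligand AREG (-0.44) was lower, where 4.17% of all genes were called higher and 4.59% lower. All 3 proliferation genes tested, CDK1, PCNA and TOP2A, were called higher, against the same 4.17% of all genes. CDK1, the kinase of mitotic entry, was at 26.8 against 6.14 CPM in Injury_1 and 11.8 against 2.73 CPM in Injury_2. TOP2A, a topoisomerase of dividing cells, was at 31.7 against 2.40 CPM in Injury_1 but at 5.05 against 4.78 CPM in Injury_2, so its difference was seen in Injury_1. None of 5 stress genes was called by edgeR, where 1317 of the 5706 genes had an unadjusted p under 0.05, JUN and FOS of the stress genes among them.

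**Figure D5:**
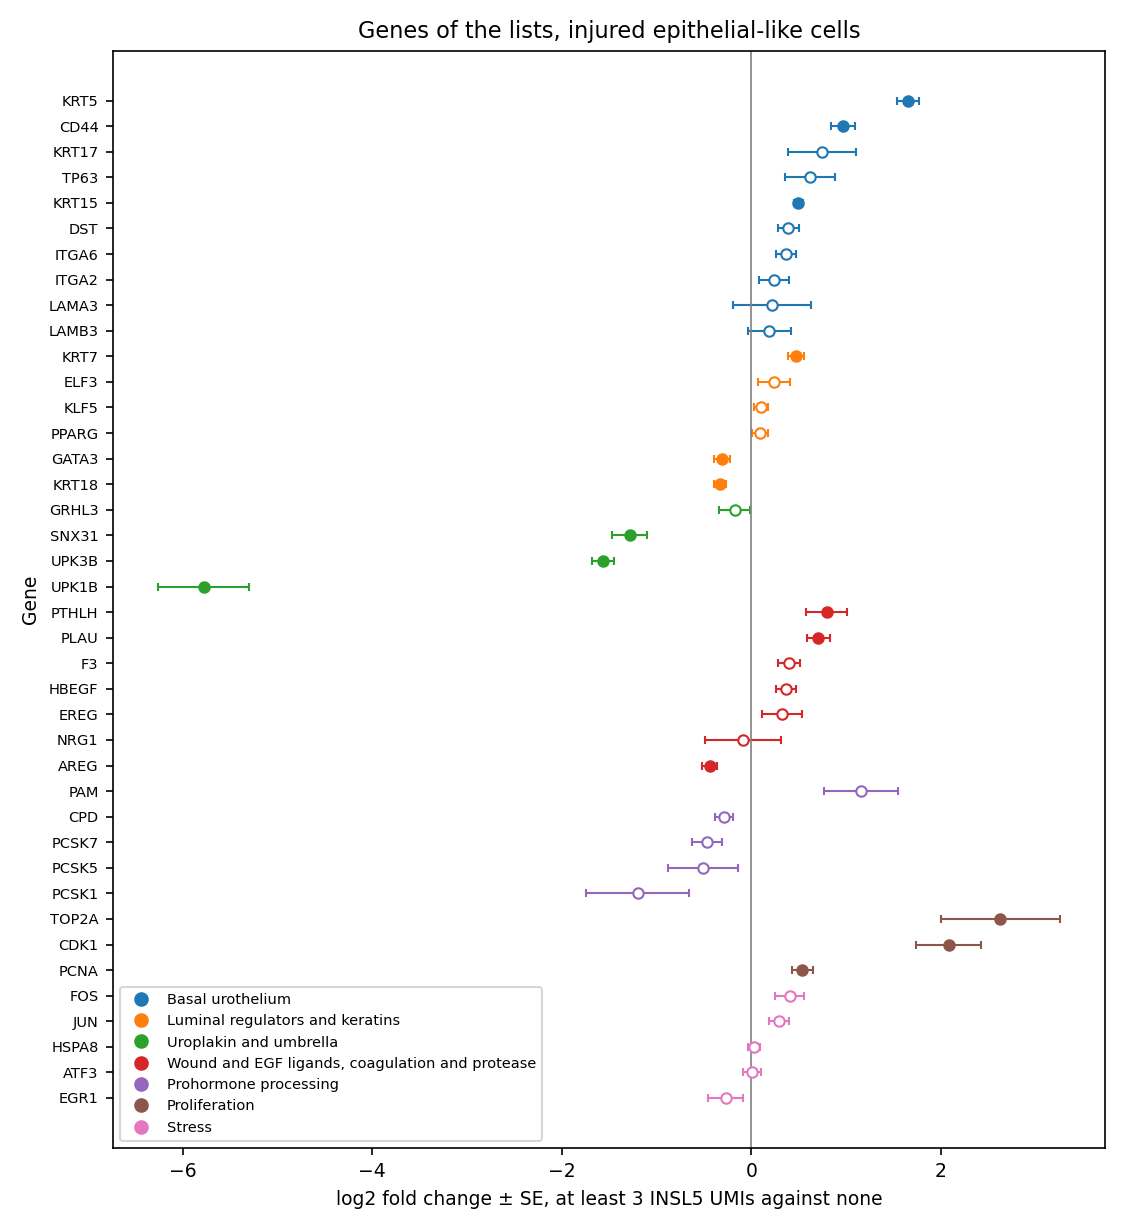
log2 fold change with its standard error for genes of 7 lists in epithelial-like cells of the 2 injured samples, cells with at least 3 INSL5 UMIs against cells with none. Colours mark the lists and filled points an edgeR adjusted p of at most 0.05 (for basal and uroplakin genes, KRT5 and UPK3B among them, a description), with UPK1B at -5.78 the lowest and TOP2A at 2.63 the highest.

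Injury_1 and Injury_2 had more INSL5 than the normal samples, while several genes of the states that held most of it in injury were lower over all epithelial-like cells. The make-up of these cells differed as well. UPK3B was detected in 435 of 566 and 204 of 354 injured cells against 115 of 441 and 25 of 171 normal cells. The part of this make-up in the differences below was not tested. Of the 11 basal genes tested between the conditions, LAMB3, LAMA3 and ITGA2 were called lower in the injured epithelial-like cells and none higher, where 1.04% of all genes were called lower. LAMB3 was at 24.3 and 16.4 CPM in the injured and 195 and 346 CPM in the normal samples (log2 fold change -4.03, standard error 0.45, edgeR adjusted p = 0.0273). F3 was at 168 and 177 CPM against 1781 and 3253 CPM (log2 fold change -4.16, standard error 0.47, edgeR adjusted p = 0.0273). HBEGF, an EGF receptor ligand, was at 169 and 126 CPM against 424 and 312 CPM and was called lower too. KRT5 was not called (log2 fold change -0.52, edgeR adjusted p = 0.593), and neither was UPK3B (2.52, adjusted p = 0.101). None of the 4 proliferation genes was called by edgeR, among 1441 genes of 7046 at an unadjusted p under 0.05.

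Genes that process and accompany INSL5 in the gut were looked for in the same cells. PCSK1, a convertase of endocrine granules, gave 63 UMIs in 29 epithelial-like cells, all of them in Injury_2, at 11.2 CPM. Of these 29 cells 19 (65.5%) also held INSL5, against 64.4% of all epithelial-like cells of that sample, which are close shares. PCSK2, the other granule convertase, had 1 UMI. The convertases PCSK5 and PCSK7 were more widespread, with 530 and 733 UMIs. PCSK5 was at 10.9 and 8.19 CPM in the injured against 56.5 and 35.2 CPM in the normal samples (log2 fold change -2.49, standard error 0.30, edgeR adjusted p = 0.0304), and it was the only one called of 5 prohormone processing genes tested, where 1.04% of all genes were called lower. Cells outside the epithelium had 54.9 to 125 CPM of PCSK5. PCSK7 was at 36.4 and 58.2 CPM against 14.4 and 21.7 CPM and was not called (1.14, edgeR adjusted p = 0.209). CPD, a carboxypeptidase of the trans-Golgi network, was at 395, 323, 298 and 170.0 CPM in Injury_1, Injury_2, Normal_1 and Normal_2. It was found in 87.1% of all epithelial-like cells and in 96.6% of the cells with INSL5, which were deeper in the injured samples.

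The markers of enteroendocrine and intestinal cells named here were missing or rare. Of 20 enteroendocrine genes 14 were in the gene list, and among them CHGA (chromogranin A), GCG (the proglucagon gene), NTS, SST, GIP, NKX2-2, PAX4, FEV and SCGN had 0 UMIs in all 1532 epithelial-like cells. SCG3 had 48 UMIs, 16 of them in cells with INSL5, SCG2 had 6, CHGB had 3 and RFX6 had 1. CDX1, a homeobox gene of intestine, had 0 UMIs, VIL1 (villin) 1 and LGR5 30. Of the family, INSL6 had 0 UMIs, and IGF1 had 62 UMIs in 37 epithelial-like cells and 34.7 to 184 CPM in the other cells. IGF2R was at 16.001 and 10.3 CPM in the injured and 10.6 and 7.56 CPM in the normal epithelial-like cells, with no call (log2 fold change 0.28, edgeR adjusted p = 0.693).

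The genes next to INSL5 in RefSeq's rabbit assembly mOryCun1.1 were not called between the conditions. In that order SLC35D1, MIER1 and DNAI4 lie on its left and DYNLT5, SGIP1 and PDE4B on its right. MIER1 was at 336, 380.1, 256 and 177 CPM in Injury_1, Injury_2, Normal_1 and Normal_2 (log2 fold change 0.50, edgeR adjusted p = 0.320). DNAI4 was at 6.76, 31.9, 8.91 and 4.93 CPM (1.26, adjusted p = 0.404), PDE4B at 3.72, 1.60, 2.84 and 7.23 CPM (-1.14, adjusted p = 0.404) and SLC35D1 at 3.03 to 4.93 CPM. DYNLT5 had no UMI and SGIP1 reached 0.356 CPM in Injury_2 alone. DYNLT5 and SGIP1 were too low to be tested.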

How the data were processed

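The authors deposited, for each of the 4 samples, a filtered matrix of UMI counts per gene and cell barcode made with Cell Ranger (6.0.1 in the matrix headers), not normalized. The genome build was not given in the sources used here. Barcodes under 500 UMIs or 200 genes, or with over 15% mitochondrial UMIs (13 genes), were dropped. The cells were integrated (CCA, 2000 variable genes, 30 components) and clustered at a resolution of 0.8 with Seurat 5.3.0. A cluster was named from its class with the largest share of raised markers, and stayed unnamed with fewer than 3 raised, with more markers of another class among its top 10 genes, or with none of its own there and either shallow cells or proliferation genes. Scrublet (scanpy 1.11.5) scored doublets, and the highest 5% were left out only as an alternative, so doublets remain in the main values.

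Counts were summed per sample and class or group, divided by all UMIs of the same cells to give CPM, and tested with edgeR 4.0.16 (R 4.3.3, quasi-likelihood, filterByExpr, TMM, Benjamini-Hochberg adjusted p of 0.05) over all genes, with DESeq2 1.42.0 as an alternative. INSL5 itself was left out of the fits by INSL5 state. The fits were tested on simulated data with known changes. Shares of cells were thinned to 1000 UMIs by their expected value.

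INSL5, the gene lists and the markers were chosen with earlier results of these data known. Genes were named if they were in a list, among the 10 largest rises or falls past the threshold (restricted to genes that carry a symbol, reach 20 CPM where higher and move 1 way in every sample), or among the 10 best correlated with INSL5. For the comparison by INSL5 state this rule named no gene with any UMI as the limit, and was applied to the limit of 3 UMIs. ENSOCUG00000022850 and the neighbours of INSL5 were named outside it. Alternatives changed the cell limits, clustering, epithelial choice, scaling, filter, test and samples. Some genes of the lists are not reported here.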

Additional observations from a re-analysis of the deposited data

Results flagged for a closer look

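The relation of INSL5 to both layer markers ran in opposite directions in injured and normal epithelium. For UPK3B, the detected minus undetected difference in log2(CPM + 1) averaged -1.31 in the injured samples, negative in both, and 0.80 in the normal samples, positive in both. For KRT5 it averaged 0.61 in the injured samples, positive in both, and -0.89 in the normal samples, negative in both but only -0.098 in Normal_2. These differences between conditions were not tested, because the detection groups were part of how the gene was chosen.

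Barcodes that failed the cell limits also held INSL5. It was at 45.2 CPM in Injury_1, from 105 UMIs in 32 of 730 barcodes, and at 140 CPM in Injury_2, from 381 UMIs in 78 of 612 barcodes, against 2.79 and 1.71 CPM in the 1515 and 857 such barcodes of Normal_1 and Normal_2. The classes of these barcodes were not determined.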

How the results depend on the processing

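With 2 samples a condition, an exact two-sided permutation test cannot go below p = 0.3333. Any gene with both injured levels above both normal levels gives that value, so nothing is read from it for INSL5. The injured minus normal difference of INSL5 was 3.50 in log2(CPM + 10), a description. Every split of the normal samples rests on only 51 and 22 epithelial UMIs of INSL5. The fitted log2 fold change of INSL5, a description, was 3.77 to 4.86 when a sample was left out. The mean level ran from 52.8 CPM without Injury_2 to 143 CPM without Normal_2. Its ratio to the next class ran from 73.7 without Injury_2 to 192 without Injury_1, and was 9.51 with epithelial cells chosen by gene detection, where the rest includes clustered epithelial cells that miss that choice.

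The UPK3B difference in normal samples was 1.05 at a mitochondrial limit of 10%, 0.71 without high doublet scores, 2.02 with epithelial cells chosen by gene detection, 1.32 with UPK1B or UPK3B, 0.86 with at least 5000 UMIs and 0.36 as thinned shares, and 0.79 to 0.81 when a sample was left out. In injured samples it was -0.83 with gene detection and -1.64 to -0.97 when a sample was left out. The KRT5 difference ran from 0.38 to 0.84 in injured and from -1.69 to -0.098 in normal samples when a sample was left out. None of the 4 differences changed sign in any alternative run.

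Genes called between conditions numbered 117, and 50 at the 10% mitochondrial limit, 182 without high doublet scores, 244 with gene detection, 967 with no filter, 513 with DESeq2, and 50 without Injury_1, 53 without Injury_2, 417 without Normal_1 and 476 without Normal_2. Samples share only a number across conditions (correlation of deviations 0.11 over 7046 genes), and with the replicate block 58 genes were called and INSL5 had 4.27. Genes called by INSL5 state numbered 1, and 2 without high doublet scores, 15 with gene detection, 47 with no filter, 2 with DESeq2, 0 with no sample term, 0 without Injury_1 and 5 without Normal_1. It was 500 with at least 3 INSL5 UMIs. Chosen after seeing the data, the injured samples alone gave 415, at least 3 UMIs at 5000 to 20000 UMIs gave 396, and at least 3 UMIs without high doublet scores gave 679. The cause of these changes was not tested.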
